A study of Mus musculus with 12 samples.

Results

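The wild-type piriform cortex of the mouse at 12 months of age was described from the 6 RNA-seq libraries whose genotype label reads wild type, out of 12 libraries in the series. The other 6 libraries came from mice heterozygous for the Q140 knock-in allele, enter no comparison here and were not contrasted with the wild types. All animals were of the C57BL/6 strain and 12 months old, and the wild types were 3 males (animals 1, 4 and 5) and 3 females (animals 2, 3 and 6), untreated as far as the labels state. Each library was 1 animal, so every SD and p-value reflects differences among animals, with those of dissection, library preparation and read counting included. Dissection and preparation cannot be told apart from the animal. Names of the mice begin with one of several unexplained prefixes: RFckQ in animals 1, 2, 3 and 5, RFQ in animal 4 and FMQ in animal 6. The last 2 animals and their prefixes cannot be told apart. Animals 1 and 5, both male, also share the number after the prefix, which no other wild type carries. The meaning of that number is not stated.

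The piriform cortex is a sheet of ancient, layered cortex that receives odour signals directly from the olfactory bulb. Its principal cells are glutamatergic: semilunar cells of the outer cell layer, which express reelin, and pyramidal cells deeper down. Both are fed by the bulb and held in check by local GABA interneurons. It borders the striatum on its deep side, encloses the endopiriform nucleus, lies next to the claustrum and carries meninges on its surface, so a dissected piece can hold cells of each.

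Libraries held 24.1 to 33.2 M counted reads (28.9 ± 3.15 M, SD, n = 6). Between 23822 and 24429 genes had at least 1 read per animal, and between 13849 and 14199 reached 1 FPKM (fragments scaled by gene length and library size), a scale on which genes of unlike length can be compared. For a gene with 0 reads the level could still be as high as 0.125 CPM (reads scaled by library size; for all later CPM values the size is also corrected by TMM, edgeR's factor for library composition) where depth was lowest and 0.0904 CPM where it was greatest, taking 3 counts as the limit and counting error alone. Protein-coding genes took 90.6 ± 0.516% of the reads, transcripts of the mitochondrial genome 6.36 ± 0.557%, pseudogenes 1.29 ± 0.0171% and long intergenic RNAs 1.07 ± 0.0788%. The mitochondrial share holds only reads assigned to that genome and may be too low, since several of its mRNAs share sequence with other annotated genes. No library repeated another: the closest pair of animals, 1 and 5, still differed by a chi-square of 6.36 per gene. The strand setting of the counting is not stated, so counts may mix genes that lie across from each other on both strands. Among the genes named here this touches App, Atp1b1, Sv2b, Slc32a1, Chrm1, P2ry12, Olig1, Bmp4, Abcc9, Tagln, Ppp1r1b, Bhlhe41, Eomes, Dnm1l and Pbrm1 and those marked where they appear. In bulk tissue fewer cells of a type and less RNA per cell cannot be told apart.

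Listed promoter windows of genes that mark the cells of this tissue were of very unlike base composition. The 300 bases around the annotated start (250 before, 50 after) are shown for 5 of the 6 marker genes because their CG content is so unlike. Sequences are RefSeq's on GRCm38.p6, 5′ to 3′ on the gene's strand, with each CG dinucleotide in capitals. Slc17a7 (chr7:45163671-45163970, plus strand) is the vesicular glutamate transporter of cortical excitatory neurons. Reln (chr5:22344656-22344955, minus strand) encodes reelin, and Lhx2 (chr2:38339031-38339330, plus strand, the first of 2 listed windows) a homeodomain factor of cortical patterning. Gad1 (chr2:70561879-70562178, plus strand) encodes the GABA-synthesizing enzyme and Slc1a2 (chr2:102706188-102706487, plus strand) the main glutamate transporter of astrocytes.
Slc17a7: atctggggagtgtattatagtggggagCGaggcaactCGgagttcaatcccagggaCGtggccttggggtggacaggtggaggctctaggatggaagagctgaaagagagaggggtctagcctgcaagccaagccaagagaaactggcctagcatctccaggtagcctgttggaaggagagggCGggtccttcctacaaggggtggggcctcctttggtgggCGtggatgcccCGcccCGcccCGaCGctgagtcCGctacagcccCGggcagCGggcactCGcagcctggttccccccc
Reln: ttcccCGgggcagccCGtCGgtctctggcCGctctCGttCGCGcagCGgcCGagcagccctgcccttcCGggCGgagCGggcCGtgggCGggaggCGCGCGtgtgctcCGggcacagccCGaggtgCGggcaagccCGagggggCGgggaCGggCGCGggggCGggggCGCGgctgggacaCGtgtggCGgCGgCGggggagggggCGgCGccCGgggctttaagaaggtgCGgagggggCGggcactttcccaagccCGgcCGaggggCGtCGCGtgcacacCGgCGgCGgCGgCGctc
Lhx2: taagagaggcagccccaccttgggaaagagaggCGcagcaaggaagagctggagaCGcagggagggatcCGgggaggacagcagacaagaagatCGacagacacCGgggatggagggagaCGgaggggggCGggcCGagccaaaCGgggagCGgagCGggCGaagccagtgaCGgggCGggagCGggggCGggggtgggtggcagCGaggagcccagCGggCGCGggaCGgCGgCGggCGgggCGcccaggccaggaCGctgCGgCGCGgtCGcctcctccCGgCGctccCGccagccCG
Gad1: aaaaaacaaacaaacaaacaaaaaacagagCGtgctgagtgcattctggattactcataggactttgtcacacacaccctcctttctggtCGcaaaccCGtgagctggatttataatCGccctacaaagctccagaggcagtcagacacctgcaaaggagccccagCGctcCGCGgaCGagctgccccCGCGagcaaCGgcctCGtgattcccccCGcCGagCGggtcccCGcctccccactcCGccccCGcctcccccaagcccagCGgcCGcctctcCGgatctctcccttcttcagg
Slc1a2: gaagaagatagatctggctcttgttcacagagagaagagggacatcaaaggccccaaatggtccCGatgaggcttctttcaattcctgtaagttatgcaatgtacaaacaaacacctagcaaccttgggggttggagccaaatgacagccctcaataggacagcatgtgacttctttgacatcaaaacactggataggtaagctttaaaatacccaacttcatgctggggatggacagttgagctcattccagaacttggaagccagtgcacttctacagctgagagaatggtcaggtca
These windows held 13, 47, 34, 21 and 1 CG dinucleotides in that order. Of 16014 protein-coding genes matched to a window, 59.3% had at least 10 CG in it. Among 2872 genes with no read in any wild type 5.36% did. The share was 38.0% for genes read but below 1 FPKM, 83.0% at 1 to 10 FPKM, 87.9% at 10 to 100 FPKM and 86.1% of the 194 genes at 100 FPKM or more. Slc1a2, at 331 FPKM, was among the highest genes, and its 1 listed window was nearly free of CG. That window covers a single annotated start, whereas FPKM counts the whole gene. Any start elsewhere in Slc1a2 is not described here.

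All 6 marker genes were read in every animal, as were 15456 of 21759 protein-coding genes outside the mitochondrial genome. Defining markers of glutamatergic neurons, GABA neurons, oligodendrocytes and astrocytes were thus present in the labelled tissue. Slc17a7 ranged from 316 to 354 FPKM (median 328), with animal 3 highest and animal 5 lowest. Gad1 ranged from 26.2 to 36.7 FPKM (median 31.2), highest in animal 2 and lowest in animal 6. Mbp, the myelin basic protein of oligodendrocytes, ranged from 193 to 270.0 FPKM (median 261), lowest in animal 6, and Slc1a2 from 293 to 380.5 FPKM (median 329). The levels of Gad1, Mbp and Slc17a7 did not overlap with one another, so these genes kept the same order in each animal, while Slc1a2 and Slc17a7 overlapped. The order holds for these genes and not for every marker of the same cell types. Gad1 stood at 9.49 ± 1.59% of Slc17a7 per length (SD, n = 6). Reln ranged from 3.70 to 5.03 FPKM (median 4.08), and animal 3 stood apart at the top. Lhx2 ranged from 10.7 to 12.6 FPKM (median 11.6), a span of 1.18 times.

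Transcripts of the mitochondrial genome led the abundance order. mt-Co1, a subunit of cytochrome oxidase, ranged from 12329 to 15645 FPKM (median 13094). Next came mt-Cytb of complex III at 9066 ± 788 FPKM and the complex I subunits mt-Nd1 at 8483 ± 684 FPKM, mt-Nd2 at 5491 ± 412 FPKM, mt-Nd4 at 3569.6 ± 239.7 FPKM and mt-Nd5 at 3558 ± 457 FPKM. Animal 4 was highest for each of these 6 genes, and its mitochondrial share of reads, 7.30%, exceeded the 5.91 to 6.74% of the other animals. The genome is transcribed as long precursors, and levels of the remaining 7 mRNAs were 7.97 to 106 FPKM. Of their 50-base words, those of mt-Co2 were all shared with another annotated gene (Gm28661), as were 99.5% for mt-Atp6, 99.9% for mt-Co3, 98.0% for mt-Nd3 and 98.8% for mt-Nd4l, while mt-Atp8 and mt-Nd6 shared 0. The values of the first 5 are therefore uncertain. For mt-Co1 and mt-Nd4 the shared part was 51.1% and 62.2%. The mitochondrial share of reads given above is uncertain for the same reason.

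The reads were spread over many genes. The 100 highest genes held 19.1 to 20.3% of reads with mitochondrial genes and 14.5 to 14.8% without. Between 997 and 1039 genes were needed to reach 50% of the reads, and 1160 to 1218 for 50% of the reads outside the mitochondrial genome. Exactly 10 genes passed 1000 FPKM in each animal, 315 to 345 passed 100 FPKM and 5239 to 5331 passed 10 FPKM. The highest mean among nuclear genes was that of Fth1, the iron-storing ferritin heavy chain, at 1352 to 1681 FPKM (median 1492). Of genes with few words shared with another gene, Sepw1 (selenoprotein W) followed at 794 ± 56.4 FPKM, then Cpe, the carboxypeptidase that trims neuropeptides, at 749 ± 42.7 FPKM. Genes known from neurons and from glia alternated below them. Genes of calmodulin, abundant in neurons, included Calm2 (738 ± 37.6 FPKM) and Calm3 (505 ± 26.9 FPKM), beside neurogranin, Nrgn (590.0 ± 58.5 FPKM), which binds calmodulin in dendrites, and the kinase gene Camk2a (489 ± 60.96 FPKM). Astrocytes are the main known source of Apoe, the lipid carrier (699.9 ± 79.3 FPKM), Sparcl1, a synapse-organizing matrix protein (636 ± 50.4 FPKM), and Glul, glutamine synthetase (499.7 ± 39.8 FPKM).

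Ckb of energy buffering (628 ± 61.4 FPKM), the protease inhibitor Cst3 (621 ± 34.5 FPKM), the sodium pump subunit Atp1b1 (572 ± 34.3 FPKM), prosaposin, Psap (539 ± 18.2 FPKM), and the amyloid precursor gene App (534 ± 23.2 FPKM) were also among the 20 highest. A different pattern held for Ptgds, the prostaglandin D synthase of meninges and oligodendrocytes, at 511 ± 327 FPKM. Its level was 67.8 FPKM in animal 3 and 1045 FPKM in animal 4, with the other 4 at 333 to 639 FPKM. Also among the 20 were Gm23935 (1401 ± 511 FPKM), Gm14303 (671 ± 48.5 FPKM) and Gm11223 (581 ± 17.9 FPKM). Their 50-base words occur in other genes for 100%, 100% and 87.5% of positions (Gm24270, Rps29 and Stmn1), so their reads cannot be assigned with certainty.

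**Figure D1:**
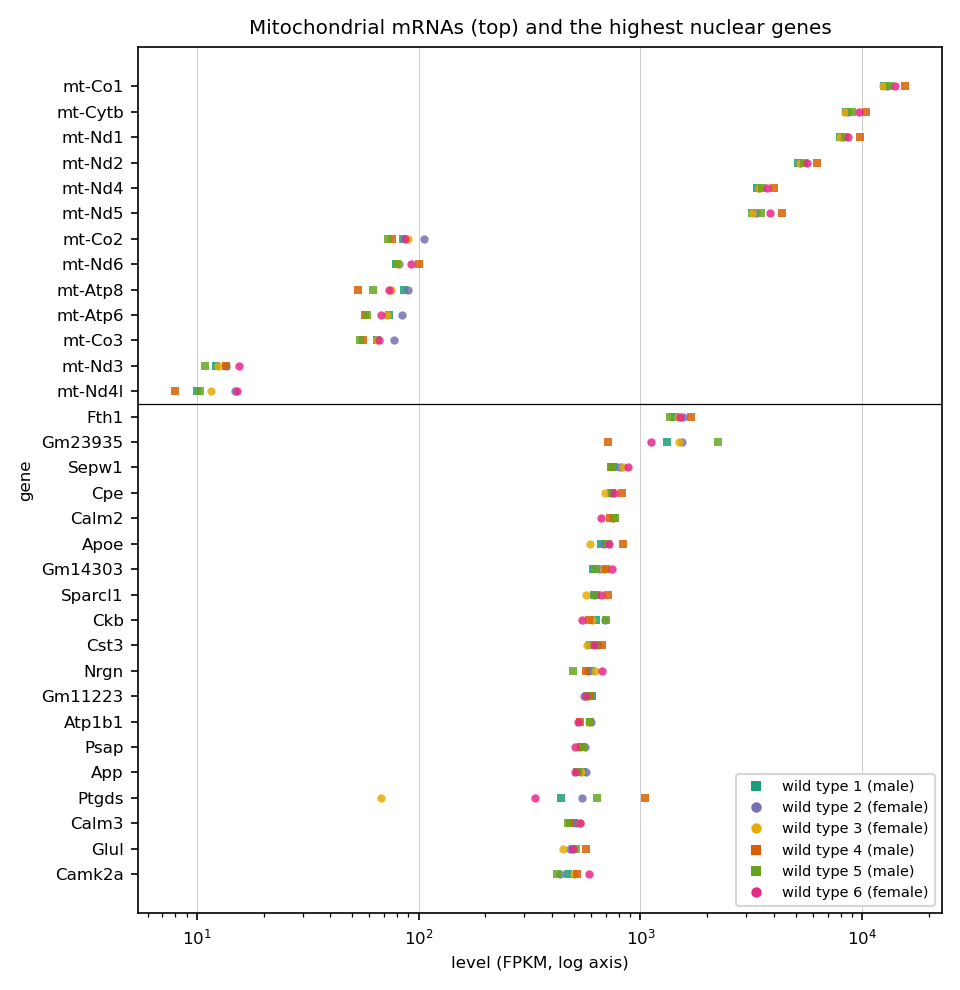
Level of the 13 mitochondrial mRNAs (above the line) and the 20 nuclear genes of highest mean, 1 of them not shown, 1 point per animal, on a log axis of FPKM. The 6 upper mitochondrial mRNAs lie above all nuclear genes shown, and Ptgds spreads from 67.8 to 1045 FPKM while Fth1 stays between 1352 and 1681 FPKM.

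Markers of excitatory neurons were high in all animals. The 10 listed markers summed to 1486 to 1885 FPKM (median 1667), and 7 of the 10 were lowest in animal 5, against 16.7% of 15460 genes with a mean of at least 1 CPM. Counts of listed genes highest or lowest in an animal were taken on TMM CPM, here and below, unless FPKM is named. Beside Slc17a7, Camk2a and Nrgn, the list held the vesicle protein Sv2b (77.8 ± 3.35 FPKM), the vesicular zinc transporter Slc30a3 (75.5 ± 5.77 FPKM) and the transcription factor of early-born cortical neurons Tbr1 (32.2 ± 2.69 FPKM). Their coefficients of variation (CV, the SD over the mean of CPM scaled by TMM, edgeR's correction for library composition) were 4.50, 8.27 and 8.84%. Neurod6, a factor of cortical pyramidal cells, varied more: it was 3.04 FPKM in animal 5 and 10.4 FPKM in animal 6, with 4.45 to 7.87 FPKM elsewhere. Slc17a6, the other vesicular glutamate transporter and typical of thalamus, reached 1.51 ± 0.321% of Slc17a7.

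Inhibitory markers summed to 123 to 176 FPKM (median 149) over 10 genes, and members of this list differed in their spread. Adarb2, an RNA-binding protein of interneurons, was even, at 2.49 ± 0.119 FPKM with a CV of 4.85%, whereas Gad2 ranged from 19.5 to 39.6 FPKM (median 31.0) and Slc32a1, which loads GABA into vesicles, from 16.7 to 36.0 FPKM (median 25.5). Dlx5, a factor of GABA neuron development, went from 4.95 FPKM in animal 2 to 1.37 FPKM in animal 6. Lhx6, a factor of cortical interneurons of medial origin, was highest in animal 6 at 3.38 FPKM against 1.95 to 2.77 FPKM in the others. Gad2, Slc32a1 and Dlx5 had the same highest and lowest animals as several genes of striatal projection neurons, which are GABAergic too (values given with that list), and the part of those cells in this spread was not tested.

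Among genes that divide cortical interneurons into classes, somatostatin had the highest mean per length. Sst ranged from 99.8 to 218 FPKM (median 164) and overlapped with Cck, at 77.2 to 238 FPKM (median 134), which pyramidal cells also express. Npy followed at 49.7 ± 13.3 FPKM, Lamp5 of neurogliaform cells at 33.8 ± 4.04 FPKM, the cannabinoid receptor gene Cnr1 at 17.7 ± 1.67 FPKM, Calb1 at 13.3 ± 5.89 FPKM, Vip at 13.2 ± 1.22 FPKM and parvalbumin, Pvalb, at 10.6 ± 1.78 FPKM. The ranges of neighbours in this order overlapped, except that every value of Cck lay above Npy and every value of Lamp5 above Cnr1. Animal 6 was highest for 9 of the 14 class genes with a mean of at least 1 CPM, and animal 5 lowest for 7, led by Calb1 (5.33 against 22.1 FPKM) and Cck (77.2 against 238 FPKM). Over all genes at that level animal 6 was highest in 23.4% and animal 5 lowest in 16.7%. Chodl, of a rare long-range somatostatin cell, stayed at or below 0.154 FPKM.

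Neuropeptide precursors followed a steep order. Penk (proenkephalin, 163 ± 60.1 FPKM), Sst and Cck overlapped at the top, and Penk overlaps A830012C17Rik on the other strand. Cartpt came to 26.1 ± 3.02 FPKM, Tac1 (substance P) to 11.7 ± 6.74 FPKM, corticotropin-releasing hormone, Crh, to 7.71 ± 1.16 FPKM, Adcyap1 (PACAP) to 7.63 ± 1.53 FPKM and dynorphin, Pdyn, to 5.81 ± 2.47 FPKM. Trh, at 0.530 ± 0.134 FPKM, was the lowest of 16 listed genes. Penk, Tac1 and Pdyn, which striatal neurons also make, were all highest in animal 5 and lowest in animal 6, where Tac1 was 1.69 against 6.99 to 20.0 FPKM in the others. Nts, neurotensin, was 0.975 FPKM in animal 6 and 3.89 to 8.86 FPKM elsewhere. Of neuromodulator receptors the muscarinic Chrm1 led at 31.6 ± 2.28 FPKM, before Cnr1, the beta-adrenergic Adrb1 (15.2 ± 0.833 FPKM), the serotonin receptor Htr2c (12.3 ± 1.86 FPKM) and Chrm3 (9.08 ± 0.951 FPKM). All 14 listed receptors had a mean above 1 FPKM, down to Adra1a at 1.2 ± 0.140 FPKM.

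Astrocyte markers summed to 1730.3 to 2131 FPKM (median 1869) over 17 genes. After Glul and Slc1a2 they were led by Ndrg2 (303 ± 15.6 FPKM) and the glycolytic enzyme gene Aldoc (234 ± 13.2 FPKM). Slc1a2 overlaps Gm13872 and Glul overlaps Teddm2 on the opposite strand. Animal 4 was highest for 12 of 17 (14 by FPKM), against 21.7% of all genes. Among them were Gfap, the intermediate filament (72.1 FPKM against 43.2 to 59.5 FPKM), the water channel gene Aqp4 (50.5 against 31.0 to 40.9 FPKM) and the connexin gene Gjb6 (20.4 against 9.94 to 13.4 FPKM). Microglia markers summed to 249.5 to 305 FPKM (median 265) over 14 genes, with Ctss (47.3 ± 3.41 FPKM), C1qa (41.8 ± 3.89 FPKM) and the homeostatic receptor P2ry12 (14.7 ± 2.31 FPKM). On TMM CPM they were highest in animal 4 for 8 members (against 21.7% of all genes) and in animal 6 for 6 (23.4%), and lowest in animal 3 for 7 (18.2%). By FPKM 11 members were highest in animal 4.

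Oligodendrocyte and myelin genes were lower in animal 6 than in the other 5 animals. The 14 genes summed to 646 FPKM there and to 782 to 931 FPKM elsewhere. Animal 6 was lowest for 12 of 14 (13 by FPKM), against 20.8% of all genes. The adhesion glycoprotein gene Mag was 22.9 FPKM in animal 6 and 30.8 to 37.5 FPKM in the rest, and Mobp 79.4 against 99.6 to 112 FPKM. Precursor cell markers summed to 68.7 to 76.4 FPKM (median 71.6) over 10 genes, with a CV of 4.27% for the summed FPKM. Olig1 (36.1 ± 1.82 FPKM) and Olig2 (8.84 ± 0.979 FPKM) were on top. Within that list Bmp4, a secreted growth factor, varied more, from 0.302 FPKM in animal 3 to 3.21 FPKM in animal 4.

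Genes of meningeal fibroblasts differed most between animals among lists summing to more than 10 FPKM. The 13 markers summed to 76.8 FPKM in animal 3, 365 to 701 FPKM in animals 6, 1, 2 and 5 and 1157 FPKM in animal 4, a span of 15.1 times. The span was 3.17 times without animal 3 and 9.12 times without animal 4 or within the 4 RFckQ animals. Animal 4 was highest and animal 3 lowest for all 13, against 21.7% and 18.2% of all genes. Igf2, a growth factor of meninges and vessels, was 2.75 FPKM in animal 3, 9.94, 10.02, 14.4 and 19.2 FPKM in animals 6, 1, 2 and 5 and 32.6 FPKM in animal 4, and it overlaps Igf2os. Decorin, Dcn, spanned 1.24 to 13.9 FPKM, the matrix gene Ogn 0.278 to 10.8 FPKM and the GABA transporter gene Slc6a13 0.578 to 9.83 FPKM. Ptgds made up most of the sum in every animal.

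Vessel-associated genes shared part of this pattern. Acta2 of smooth muscle was 1.98 FPKM in animal 3, 13.8 FPKM in animal 4 and 10.02 FPKM in animal 5, and Tagln 0.995, 11.0 and 7.82 FPKM. Vtn of pericytes went from 21.6 to 64.6 FPKM. Of 8 mural genes 7 were highest in animal 4 and 7 lowest in animal 3 (6 by FPKM), against 21.7% and 18.2% of all genes. The pericyte genes Kcnj8, Abcc9 and Rgs5 had CVs of 9.18, 6.39 and 9.61%. Endothelial markers summed to 68.2 FPKM in animal 1, 68.5 FPKM in animal 3 and up to 87.3 FPKM in animal 4 (median 71.6). Ly6c1 was at 14.5 ± 1.00 FPKM and Cldn5 of tight junctions at 14.1 ± 1.94 FPKM. On the scale of TMM CPM, 7 of the 10 endothelial genes were highest in animal 4 and 7 lowest in animal 3, against 21.7% and 18.2% of all genes. Markers of the brain's border macrophages summed to 1.05 to 7.02 FPKM (median 3.08) over 6 genes, again lowest in animal 3 and highest in animal 4. Haemoglobin genes summed to 41.6 to 62.1 FPKM (median 47.2) with Alas2, led by Hbb-bs at 31.0 ± 4.45 FPKM; they were highest in animal 1, and near-identical paralogs may share their reads.

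**Figure D2:**
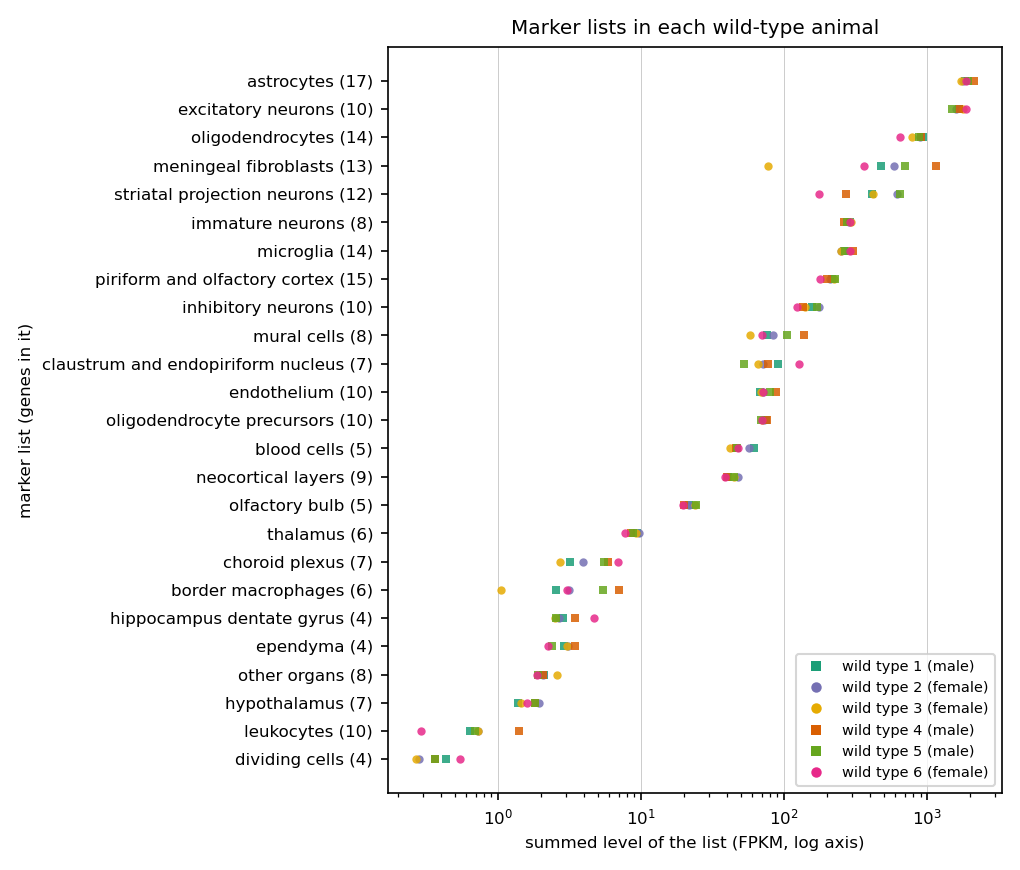
Summed FPKM of 25 marker lists in each animal, on a log axis, with the number of genes in parentheses. Excitatory neuron markers lie between 1486 and 1885 FPKM and astrocyte markers between 1730.3 and 2131 FPKM, whereas meningeal genes run from 76.8 to 1157 FPKM and striatal genes from 175 to 647 FPKM.

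The 15 genes listed for piriform and olfactory cortex summed to 177 to 226 FPKM (median 212), with a CV of 8.62% for the summed FPKM. All were read in every animal, as were 15456 of 21759 protein-coding genes outside the mitochondrial genome. Lmo3, a LIM-only cofactor, led them at 77.4 to 117 FPKM (median 109). Below it came Bcl11b, a zinc finger factor of deep cortical and striatal neurons (19.0 ± 2.00 FPKM), the netrin-G gene Ntng1 of axon guidance (12.4 ± 2.58 FPKM), Lhx2 (11.7 ± 0.769 FPKM), the semaphorin receptor gene Nrp2 (11.4 ± 0.583 FPKM) and the homeobox gene Meis2 (10.4 ± 1.27 FPKM). Neighbours from Ntng1 down to Tle4 overlapped between animals. Bhlhe22 was among them at 8.42 ± 3.07 FPKM and Tle4 at 7.55 ± 0.60 FPKM. Lower still were Cux1 (5.49 ± 0.206 FPKM), Zbtb20 (5.0 ± 0.827 FPKM), Etv1 (4.42 ± 0.214 FPKM) and Reln (4.13 ± 0.477 FPKM), each overlapping its neighbour. Fezf2 (1.99 ± 0.685 FPKM), Nr2f2 (1.37 ± 0.248 FPKM) and Foxp2 closed the order. Reln overlaps Gm10475 on the opposite strand, and Cux1, Zbtb20 and Nr2f2 also have opposite-strand neighbours, so these 4 values are uncertain.

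Spread between animals was uneven within this list. Cux1 was nearly even (CV 3.69%), as were Nrp2 (4.62%), Etv1 (4.88%), Lhx2 (7.26%) and Tle4, a corepressor (7.71%). At the other end Foxp2, a forkhead factor of deep-layer and striatal neurons, was 0.0561 FPKM in animal 6 and 0.708, 0.714, 0.840, 0.953 and 1.23 FPKM in animals 1, 4, 3, 2 and 5. Ntng1 and Lmo3 were also lowest in animal 6, at 8.10 and 77.4 FPKM. Bhlhe22, a factor of layer identity, was 13.1 FPKM in animal 6 and 11.3 FPKM in animal 4 but 5.45 to 7.26 FPKM in the 4 RFckQ animals, and Fezf2 was highest in animal 6 at 3.23 FPKM. Meis2, like Foxp2, was highest in animal 5 and lowest in animal 6 (12.5 and 9.29 FPKM), the end points of the summed striatal list, and Bcl11b was 21.05 FPKM in animal 2 and 16.5 in animal 4; the part of striatal cells was not tested. Animal 6 was highest for 5 of the 15 genes and lowest for 6, on the scale of TMM CPM, where all genes gave 23.4% and 20.8%.

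**Figure D3:**
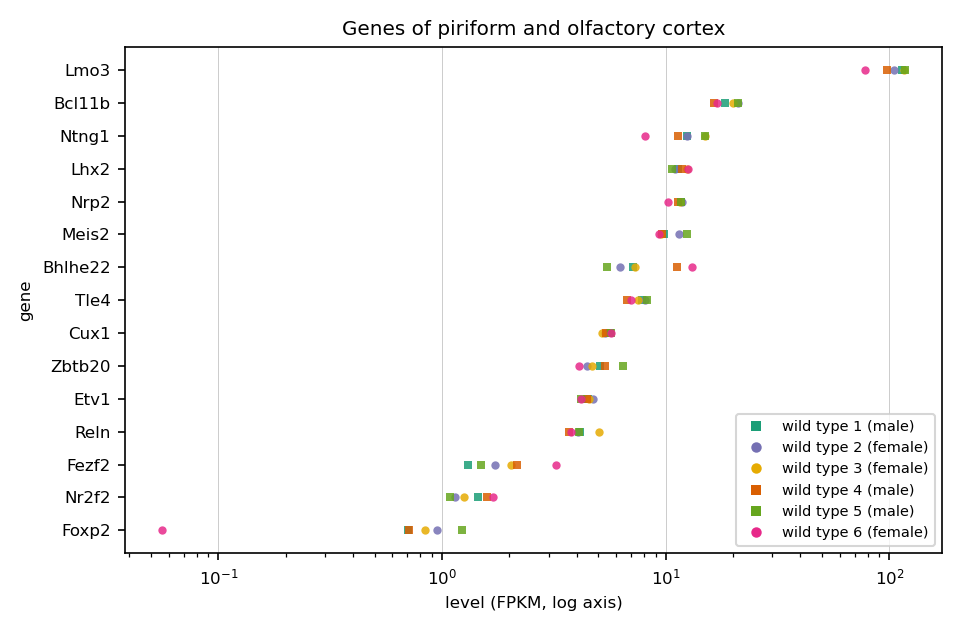
Level of the 15 genes listed for piriform and olfactory cortex, 1 point per animal, on a log axis of FPKM. Most genes keep the 6 animals close together; Foxp2 has animal 6 at 0.0561 FPKM, far below the others, and Bhlhe22 has animals 4 and 6 above the rest.

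Markers of striatal projection neurons had levels that set animal 6 apart. The 12 genes summed to 175 FPKM in animal 6, 271 FPKM in animal 4, 409.7 and 419 FPKM in animals 1 and 3 and 613 and 647 FPKM in animals 2 and 5, a span of 3.69 times. The span was 2.39 times without animal 6 and 1.58 times among the RFckQ animals. Animal 6 was lowest for all 12 genes, against 20.8% of all genes, and the highest value fell in animal 5 for 8 (17.02% of all genes) and in animal 2 for 4 (13.2%). Adora2a, the adenosine receptor of the indirect pathway, was 0.724, 4.62, 9.19, 9.93, 23.8 and 24.2 FPKM in animals 6, 4, 3, 1, 5 and 2. The dopamine receptor gene Drd2 kept the same order of animals, from 0.592 to 17.3 FPKM, and Drd1 of the direct pathway ranged from 3.62 to 18.2 FPKM. Ppp1r1b, the dopamine-regulated phosphatase inhibitor, was high throughout at 133 ± 51.1 FPKM, with 59.9 FPKM in animal 6. The phosphodiesterase gene Pde10a was 5.05 FPKM in animal 6 and 11.9 to 32.2 FPKM elsewhere, and Isl1, a factor of direct-pathway neurons, had no read in animal 6. The ratio of Drd2 to Drd1 moved from 0.163 in animal 6 to 1.13 in animal 2.

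Claustrum and endopiriform genes were arranged the other way round. Their 7 genes summed to 128 FPKM in animal 6 and 52.7 FPKM in animal 5, with 65.4 to 90.4 FPKM in the other 4. Animal 6 was highest for all 7 and animal 5 lowest for 6, where all genes gave 23.4% and 16.7%. Nr4a2, the nuclear receptor that marks these cells, was 21.2 FPKM in animal 6, 12.9 in animal 1, 7.68, 7.22 and 6.06 in animals 2, 4 and 3 and 2.31 in animal 5. Gng2 (20.0 to 44.5 FPKM), Ntng2 (6.16 to 17.6 FPKM) and the synaptoporin gene Synpr (5.15 to 12.2 FPKM) had the same end points, and Gng2 and Lxn overlap genes on the opposite strand.  The borders of the dissection were not measured, and their part in these spreads was not tested.

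**Figure D4:**
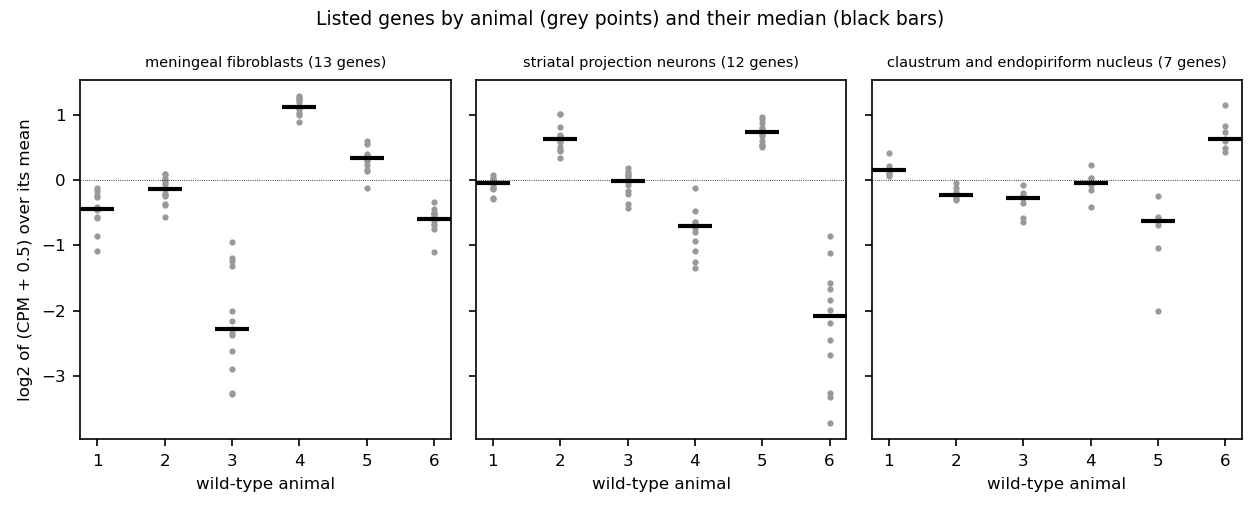
For each of 3 lists, every gene's log2 of (CPM + 0.5) over its mean across animals (grey points) and the median over the genes (black bars), by animal. Meningeal genes are low in animal 3 and high in animal 4, striatal genes are low in animal 6, and claustrum and endopiriform genes are high in animal 6 and low in animal 5.

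Lists of other neighbouring regions and of other organs summed to lower levels. The neocortical layer list summed to 38.6 to 47.8 FPKM (median 42.5) over 9 genes, led by Otof and Cux2 (12.0 ± 1.46 FPKM). Otof, otoferlin, spanned 6.32 to 17.6 FPKM and was lowest in animal 6. Thalamic genes summed to 7.68 to 9.75 FPKM (median 9.01), mostly Slc17a6 at 5.03 ± 1.11 FPKM, with Lhx9 at or below 0.0629 FPKM. Mitral cell factors of the olfactory bulb, Tbx21 and Eomes, stayed at or below 0.109 FPKM, whereas Cdhr1 of that list was 19.8 ± 1.51 FPKM. All 5 pituitary hormone genes had 0 reads in every animal. Choroid plexus genes summed to 2.71 to 6.91 FPKM (median 4.69); transthyretin, Ttr, its defining product, was 5.16 FPKM in animal 6 and at most 0.787 FPKM in the others. Leukocyte genes summed to 0.288 to 1.41 FPKM (median 0.706) and genes of dividing cells to 0.266 to 0.545 FPKM (median 0.364). The heat-shock and glucocorticoid list summed to 54.2 to 65.0 FPKM (median 62.5). Dcx, a microtubule protein of immature neurons that adult piriform cortex keeps, was 4.23 to 5.47 FPKM (median 4.96), with Sox11 at 2.92 ± 0.183 FPKM.

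Activity-regulated genes were lower in animal 4 than in the other animals. The 14 immediate early genes summed to 291 FPKM there and to 360.5 to 444 FPKM elsewhere, and animal 4 was lowest for 10 of 14, against 20.97% of all genes. Egr1, a zinc finger factor induced by activity, was 57.9 FPKM in animal 4 and 81.8 to 111 FPKM in the others. Arc, of synaptic remodelling, was 39.5 against 51.0 to 62.5 FPKM, and Nr4a1 40.02 against 44.7 to 68.9 FPKM. Npas4 departed from this, with animal 4 inside the range of 8.44 to 11.6 FPKM. Clock genes had a CV of 7.61% for the 12-gene sum of FPKM. Single members lay between Bhlhe41 (CV 2.65%) and Per2 (CV 24.7%), which ran from 7.57 FPKM in animal 4 to 14.1 FPKM in animal 6.

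Most genes varied little between animals. Over 15434 nuclear genes with a mean of at least 1 CPM, leaving out Xist and the Y chromosome, the median CV was 7.92%. It was 18.0% at 1 to 5 CPM, 9.42% at 5 to 20 CPM, 5.70% at 20 to 100 CPM and 5.07% at 100 to 1000 CPM, where counting error alone would give 12.3, 5.59, 2.84 and 1.42%. Above 1000 CPM it was 5.76%, against 0.497% from counting. The biological CV that edgeR fits across genes was 0.104 with sex in the design and 0.117 without. The steadiest genes with a mean of at least 20 CPM were Gak, a clathrin-uncoating kinase (17.2 ± 0.213 FPKM, CV 0.448%), Txndc12 (0.694%) and Sel1l of protein quality control (0.736%), then Trappc6b, Map4, Ddx46, Dnm1l, Rab11a, Akr1a1 and Pbrm1, up to 0.865%. They are the lowest of 8006 genes, and each lies below the median counting error of genes at 100 to 1000 CPM.

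Genes of large spread often had the same highest and lowest animals as the lists described above. A CV of at least 30% was reached by 235 of 12159 genes with a mean of at least 5 CPM, or 1.93%, and by 100 of 12140, or 0.824%, within the 4 RFckQ animals. Of the 235 genes, 90 (38.3%) were highest in animal 4 and lowest in animal 3, a combination found in 7.64% of all genes at that level. Another 44 (18.7%, against 7.13%) were highest in animal 5 and lowest in animal 6, and 40 (17.02%, against 9.58%) the reverse. Leading the first group were Prg4, a lubricating glycoprotein of joints and membranes, at 0 reads in animal 3, 0.551 to 1.61 FPKM in animals 6, 1, 5 and 2 and 6.92 FPKM in animal 4, and the matrix gene Mgp (4.13 to 36.1 FPKM). Mid1, a ubiquitin ligase gene that straddles the boundary between the X-specific and the pseudoautosomal part (chromosome X, 169685199 to 170005736, GRCm38), belonged to none of these groups: it was 16.5 CPM in animal 3 and 1.69 to 5.63 CPM in the others. Prg4 and Mid1 overlap genes on the opposite strand. Promoter windows with at least 10 CG were found for 60.9% of 161 genes of large spread and for 86.4% of 8666 genes below it.

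**Figure D5:**
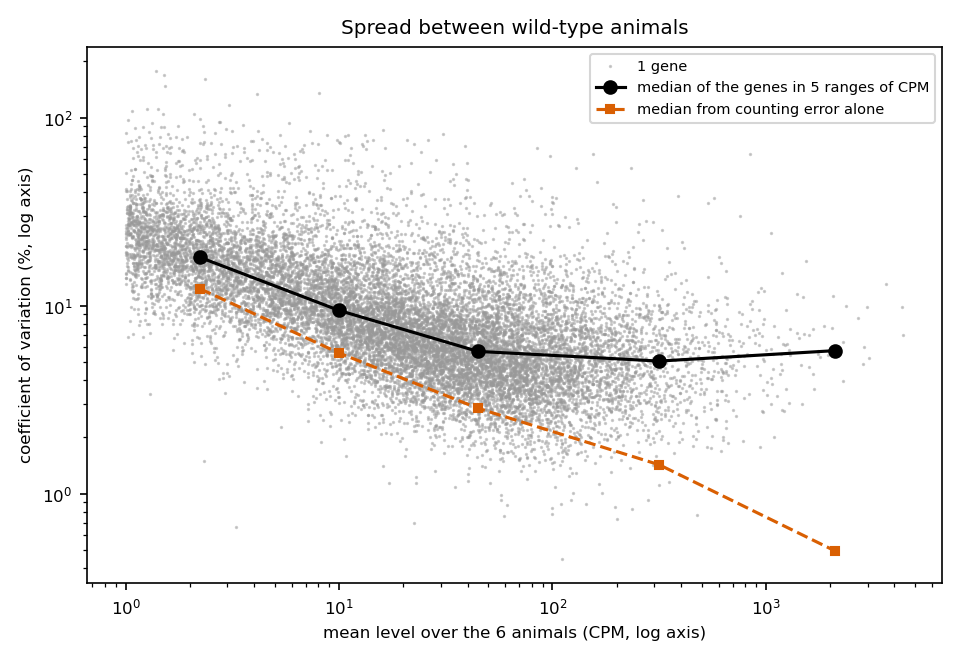
CV between the 6 animals against mean level for 15434 genes, both on log axes, with the median in 5 ranges of level (black) and the median that counting error alone would give (orange). The measured median is 5.07% at 100 to 1000 CPM and 5.76% above, while counting error falls from 1.42% to 0.497%.

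Genes in which a single animal stood apart were not spread evenly over the animals. By Dixon's criterion for 6 values on log2 CPM, which chance meets in about 5% of genes, 5.47% of 15454 genes had such an animal. It was animal 6 in 310 genes, animal 4 in 251, animal 3 in 109 and animals 1, 2 or 5 in 47 to 78 each. Pairs of animals correlated at 0.979 to 0.995 across 12178 genes (Pearson, log2 CPM, no test), and the number of genes differing by more than 2 times ran from 5 (animals 1 and 2) to 170 (animals 5 and 6).

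Besides the name prefix and number, sex is the labelled factor that differs among the wild types, and few genes separated 3 males from 3 females. Animals 1 and 5, the only males among the RFckQ animals, share a name number. Sex and that number therefore cannot be told apart within the RFckQ animals. By edgeR's quasi-likelihood test with Benjamini-Hochberg adjustment, 5 of 17697 genes were higher in males (0.0283%) and 3 higher in females (0.017%). The 5 were the Y-linked Ddx3y, Eif2s3y, Kdm5d, Uty and Gm29650. Ddx3y, an RNA helicase gene, was 60.6, 66.5 and 62.3 CPM in males and at most 0.0303 CPM in females, which matches each animal's label. Gm29650, with the fewest reads of the 5, missed the threshold without animal 1 and without animal 4 (edgeR adjusted p = 0.05004 and 0.0519). Xist, the RNA that silences an X chromosome, was 979, 1132 and 1034 CPM in females and at most 0.206 CPM in males.

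A single autosomal gene passed. Dusp4 (chromosome 8, 34807297 to 34819894, GRCm38), a phosphatase that switches off MAP kinases, was 21.5, 25.7 and 24.7 CPM in females and 13.4, 12.8 and 12.6 CPM in males, without overlap (log2 male over female -0.89, SE 0.0842, edgeR adjusted p = 0.0138). It passed without animal 2 (edgeR adjusted p = 0.0121) but not without any other: the edgeR adjusted p was 0.1198 without animal 1, 0.0957 without animal 3, 0.121 without animal 4, 0.162 without animal 5 and 0.0658 without animal 6. Within the RFckQ animals it was 0.215. The log2 values without 1 animal were -0.97 to -0.84. Gm2223, a processed pseudogene on the X, was 37.6, 39.5 and 35.4 CPM in females and 24.2, 25.1 and 25.7 CPM in males (log2 -0.59, SE 0.0616, edgeR adjusted p = 0.0273). Reads from the gene it was copied from may be shared with it. It passed without animal 6 (edgeR adjusted p = 0.0281) and missed the threshold without animals 1, 2, 3, 4 and 5 in turn (edgeR adjusted p = 0.290, 0.132, 0.184, 0.197 and 0.197), with log2 values of -0.63 to -0.55 over the 6 omissions. The meningeal sum was 476, 1157 and 701 FPKM in males and 588, 76.8 and 365 FPKM in females. The covariate fitted was the log2 of the list's summed CPM (by library size, without TMM). With the meningeal list as covariate neither gene passed: Dusp4 had a log2 of -0.79 (edgeR adjusted p = 0.134) and Gm2223 of -0.55 (edgeR adjusted p = 0.504). Both passed with the striatal list as covariate (edgeR adjusted p = 0.00705 for Dusp4 and 0.00746 for Gm2223) and with the claustrum list (0.0250 and 0.0110).

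Genes known to escape X inactivation were higher on average in females but did not pass. Eif2s3x, of translation initiation, was 17.8, 16.6 and 16.9 CPM in females and 11.2, 12.0 and 11.8 CPM in males, also without overlap (log2 -0.55, edgeR adjusted p = 0.114). The histone demethylase gene Kdm5c had a log2 value of -0.31 (edgeR adjusted p = 0.322). Of 5 such genes 0 passed in edgeR and in limma, and 2 in DESeq2 (Eif2s3x and Kdm5c). Over all 15402 genes tested by DESeq2, 19 passed as higher in males and 33 as higher in females. In edgeR 4 of the 5 had an unadjusted p below 0.05, against 9.74% of all genes tested. With no filter beyond 1 read Eif2s3x passed (edgeR adjusted p = 0.0377). Of 272 tested genes of the cell type, region and function lists, 0 passed in edgeR and in limma, while 47 (17.3%) had an unadjusted edgeR p below 0.05, against 9.74% of all genes tested. The clock gene Per2 passed in edgeR with no filter beyond 1 read (log2 -0.60, adjusted p = 0.0268). In DESeq2 5 passed: Per2 (adjusted p = 0.000117) and the activity-induced Fosb (0.00702) with higher values in females, and Btg2 (0.00464), the organic anion transporter gene Slco1a4 (0.00641) and Gfap (0.0389) with higher values in males.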

How the data were processed

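RNA-seq libraries of 12 animals were deposited as whole-number read counts per gene and as FPKM by the authors; the 6 wild-type columns of each table were used, and the 6 columns of the other genotype were not. Qiagen RNeasy served for the RNA and an Illumina TruSeq stranded kit for the libraries, per the labels' protocols. HTSeq 0.12.3, SAMtools 1.10 and STAR 2.7.5c on GRCm38 were used, per the submitters' processing notes; the strand setting, annotation release and FPKM tool were not given in the sources used here. Reads shared between overlapping or near-identical genes may therefore be miscounted. For the highest genes the share of 50-base words found in another gene of the reference transcripts (GRCm38) was computed. Only the longest annotated transcript of each gene was searched for such words. Of 48795 listed genes 48435 matched the reference annotation, and 27 symbols stand as dates in the tables and were identified by gene ID only. Levels are the deposited FPKM. CVs of single genes and counts of genes highest or lowest in an animal were taken from CPM scaled by TMM. CVs and spans of list sums were taken from summed FPKM.

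Males and females were compared with edgeR 4.0.16 (quasi-likelihood test, TMM, filterByExpr, Benjamini-Hochberg, threshold 0.05) under R 4.3.3; DESeq2 1.42.0, limma 3.58.1 on log2(FPKM + 1), other scalings and filters, leaving out each animal and, added after seeing the data, 3 list sums as covariates were the alternatives. The 4 RFckQ animals alone were also used, an alternative added after seeing the data for list sums and spread. On simulated data for this comparison (17527 genes) the test recovered 61.8% of 1.5-fold, 81.7% of 2-fold and 100% of 4-fold changes, with 9 false among 169 calls. Named genes were the markers, the 20 highest nuclear genes and the mitochondrial mRNAs, the 4 highest and the most variable member of each list, all piriform genes, the most and least variable genes and the genes past the sex threshold; other genes named were chosen after their values were seen. The members and lists were chosen with earlier results of these data known. Results for a few of the listed genes are not reported here.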

Additional observations from a re-analysis of the deposited data

Results flagged for a closer look

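In 11 of 187 sets of 6 values tested (named genes, list sums and library measures, 5.88%), 1 animal lay apart from the other 5. In unrelated sets chance does this in about 1 of 20. The list sums hold some of the named genes, and some genes were chosen after their values were seen. That rate therefore cannot be set against the number found here. Animal 3 stood apart in 4 of the sets, animals 4 and 6 in 3 each, animal 5 in 1 and animals 1 and 2 in 0.

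In animal 3, Reln was 5.03 FPKM against 3.70 to 4.12 FPKM, Tbr1 was 37.3 FPKM against 29.7 to 32.4 FPKM, and Mid1 was 2.44 FPKM against 0.253 to 0.834 FPKM. Genes of other organs summed to 2.58 FPKM there against 1.88 to 2.09 FPKM, nearly all of it Sftpc. In animal 4, Gjb6 was 20.4 FPKM against 9.94 to 13.4 FPKM, Lamp5 was 41.5 FPKM against 30.8 to 34.7 FPKM, and Prg4 was 6.92 FPKM against 0 to 1.61 FPKM. In animal 5, Ly6c1 was 16.5 FPKM against 13.8 to 14.4 FPKM. In animal 6, Calm2 was 666 FPKM against 729.5 to 765 FPKM, Nrp2 was 10.3 FPKM against 11.3 to 11.8 FPKM, and Ttr was 5.16 FPKM against 0.0741 to 0.787 FPKM.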

How the results depend on the processing

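For the log2 values of 13 genes between the sexes, 208 values were recomputed under the alternatives: 0 changed direction, 189 kept their side of the threshold, 16 no longer passed and 3 passed only there. Another 480 recomputed counts, sums, spans and levels have no direction, and 42 of them moved by more than 1 SD over animals or, where there is no SD, by over 1.5 times; 15 of these are levels given in TPM in place of FPKM. Genes higher in males numbered 5, and 19 by DESeq2; leaving out 1 animal gave 4 to 5. Genes higher in females numbered 3, 11 with no filter beyond 1 read, 33 by DESeq2 and 1 within the RFckQ animals, 7 with the striatal and 1 with the meningeal list as covariate; leaving out 1 animal gave 1 to 4, with 1 (Xist) without animal 1, 3, 4 or 5. Without mitochondrial genes the 100 highest genes held 14.7% of reads and 1187 genes held 50%. Genes detected numbered 17677 at 10 reads or more, 15431 at 1 CPM (by library size, without TMM) and 14007 at 1 FPKM. The meningeal span was 3.17 to 15.1 times without 1 animal and 9.12 times in the RFckQ animals, and the striatal span 2.39 to 3.69 and 1.58 times. No paired analysis was possible because the sexes share no animals or numbers. With 3 animals a sex, depth and number limit what could be called. At simulated 1.5-fold changes 61.8% of genes were recovered, and recovery in the real data may be lower. Genes that did not pass are therefore not shown to be alike.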

Other observations

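Genes often used as references in quantitative PCR were looked up after the other values had been seen. Their summed FPKM had a CV of 3.47% between animals. Single levels were unlike what their use as abundant standards would let one assume: Gapdh, a glycolytic enzyme gene, was listed at 3.89 FPKM and Ppia, a proline isomerase gene, at 3.22 FPKM, against 359 FPKM for Actb, 157 FPKM for Ywhaz and 72.6 FPKM for Hprt. Of 50-base words, 27.8% in Gapdh and 20.8% in Ppia occur in another gene (Gm7336 for Gapdh). In Pgk1 (12.3 FPKM) the share was 68.0% and in Hprt 0%. Words were taken from the longest annotated transcript of each gene, with 3240 words in Gapdh and 2804 in Ppia. Shares for shorter transcripts of these genes were not computed and may differ. B2m, an immune surface protein, was 91.3 FPKM with a CV of 16.01%. The part of reads shared with copies in these levels was not tested.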
